A study of Bos taurus with 6 samples.

Results

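Among the 24616 gene IDs counted in longissimus dorsi, a large back muscle, 3 belong to the actins described here. They are ENSBTAG00000046332 (ACTA1, skeletal muscle alpha-actin), ENSBTAG00000026199 (ACTB, cytoplasmic beta-actin) and ENSBTAG00000014614 (ACTA2, smooth muscle alpha-actin), and they were chosen by these IDs. The 6 animals were males of the Hanwoo breed (Korean cattle), with 1 poly(A) RNA library each. The group of bulls (intact males) held the animals numbered 20, 22 and 23, all aged 746 days after birth. The group of steers (castrated males) held animals 439, 456 and 458, aged 996, 950 and 930 days. Castration and the older age cannot be told apart, because no steer was as young as the bulls. The sources used here do not give the age at castration or the feeding.

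Actin is the protein of the thin filaments. In a skeletal muscle fibre, ACTA1 builds the thin filaments of the sarcomere, along which myosin pulls during contraction. ACTB forms the cytoskeleton that nearly every cell type carries and is often taken as a reference gene in quantitative PCR. ACTA2 is the actin of vascular smooth muscle and is also made by pericytes and myofibroblasts, so in a piece of muscle it comes largely from vessel walls and connective tissue. The family is highly conserved, and the coding sequences of its members and of actin pseudogenes are much alike. Reads that align to more than one place were not counted for any gene, so the counts of all 3 are uncertain to an extent that was not measured. Read counts were not divided by transcript length, and levels are therefore compared between animals and not between genes. The exceptions are ratios whose change between animals is described, and the rank of ACTA1 by reads.

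The libraries held between 17027226 and 27490776 gene counts. The shallowest and the deepest both came from steers, Steer 456 and Steer 458. Alignments to several places took 26.8% of all lines counted in the median library, with the lowest share, 16.9%, in Steer 439. Steer 456 stood apart across the transcriptome. It was the highest of the 6 animals in 28.1% of the 12769 tested genes and the lowest in 30.1%, against at most 19.0% and 19.7% in any other animal. The main comparisons are given below with and without it.

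None of the 3 actins passed the test between bulls and steers (0 of 3 at an adjusted p under 0.05 in edgeR). The background was 4.10% of all tested genes called in this comparison (524 genes). This number depended on single animals, with 7 to 10 genes called without any one bull, 77 without Steer 458, 995 without Steer 439 and 1019 without Steer 456. In none of the 3 were the values of one group all above those of the other, an arrangement found in 29.6% of all tested genes. At an unadjusted p under 0.05 the count was also 0 of 3, against 22.4% of all tested genes, and DESeq2 and limma voom likewise called 0 of 3, where they called 11.8% and 3.36% of all tested genes. All 3 actins passed the filter on low counts.

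By reads not divided by transcript length, ACTA1 was the highest gene of 5 libraries and the second highest in the library of Steer 456. This is the place that a sarcomeric actin is known to hold in skeletal muscle. The names of the ACTB and ACTA2 rows could not be checked against the data in this way. Its level was 44072 CPM (counts per 1000000 gene counts) in Bull 20, 54037 CPM in Bull 22 and 43205 CPM in Bull 23. In the steers it was 57689 CPM in Steer 439, 30686 CPM in Steer 456 and 42705 CPM in Steer 458. Both the highest and the lowest of the 6 values thus belonged to steers, and the groups overlapped. Expressed as a share of gene counts, ACTA1 took 4.71% ± 0.602 in bulls and 4.37% ± 1.35 in steers (SD, n = 3). Counting error was small against this spread. The 95% Wilson interval in Steer 456, for example, ran from 3.060% to 3.077%.

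The fitted difference in ACTA1, coded bulls minus steers, was 0.015 ± 0.38 on the log2 scale (SE; adjusted p = 0.986 in edgeR). Its 95% interval reached from -0.85 to 0.88, a ratio of bulls to steers between 0.553 and 1.85. A moderate difference in either direction therefore remained within the error of 3 animals against 3. The sign of an estimate this close to 0 was not stable, and it was -0.00061 with DESeq2 size factors in the same edgeR test. Without Steer 456 it was -0.22 ± 0.31 (SE; adjusted p = 0.686 in edgeR).

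The animal with the most ACTA1, Steer 439, was also the one with the smallest share of alignments to several places among all lines counted. Over all lines counted, these alignments included, ACTA1 made up 2.75% in Bull 20, 3.26% in Bull 22 and 2.75% in Bull 23. In the steers it made up 4.08% in Steer 439, 1.84% in Steer 456 and 2.65% in Steer 458. The order of the animals was the same as on gene counts. It was not the same on the TMM-scaled values used in the edgeR fit, where the TMM factor of Steer 458 was the lowest (0.889). There Steer 458 had 48081 CPM of ACTA1, above Bull 20 (44305 CPM) and Bull 23 (40160 CPM). The part of multiple alignment in the level of ACTA1 was not tested.

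ACTB was nearly level among the bulls and uneven among the steers. It was counted at 335 CPM in Bull 20, 371 CPM in Bull 22 and 352 CPM in Bull 23, from 6870 to 7276 reads. The steers had 354 CPM in Steer 439, 577 CPM in Steer 456 and 278 CPM in Steer 458. Steer 439 lay within the range of the bulls, Steer 456 lay 1.56 times above the next animal, and Steer 458 was the lowest. The coefficient of variation was 5.10% among bulls and 38.5% among steers, where counting alone gives at most 1.21% in a library. Between Steers 439 and 458 alone it was 16.97%. These coefficients are on CPM by library total and depend on the scaling. On TMM-scaled values Steer 439 had 359 CPM and Steer 458 had 313 CPM, against 328 to 364 CPM in bulls.

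Bulls had 353 ± 18.0 CPM and steers 403 ± 155 CPM of ACTB (SD, n = 3). The fitted log2 difference was -0.25 ± 0.26 (SE; adjusted p = 0.618 in edgeR), with a 95% interval from -0.85 to 0.34. The estimate was negative under every scaling that was tried. It rested on Steer 456: without that animal it was 0.03 ± 0.16 (SE; adjusted p = 0.925 in edgeR), and the interval narrowed to -0.33 to 0.39.

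**Figure D1:**
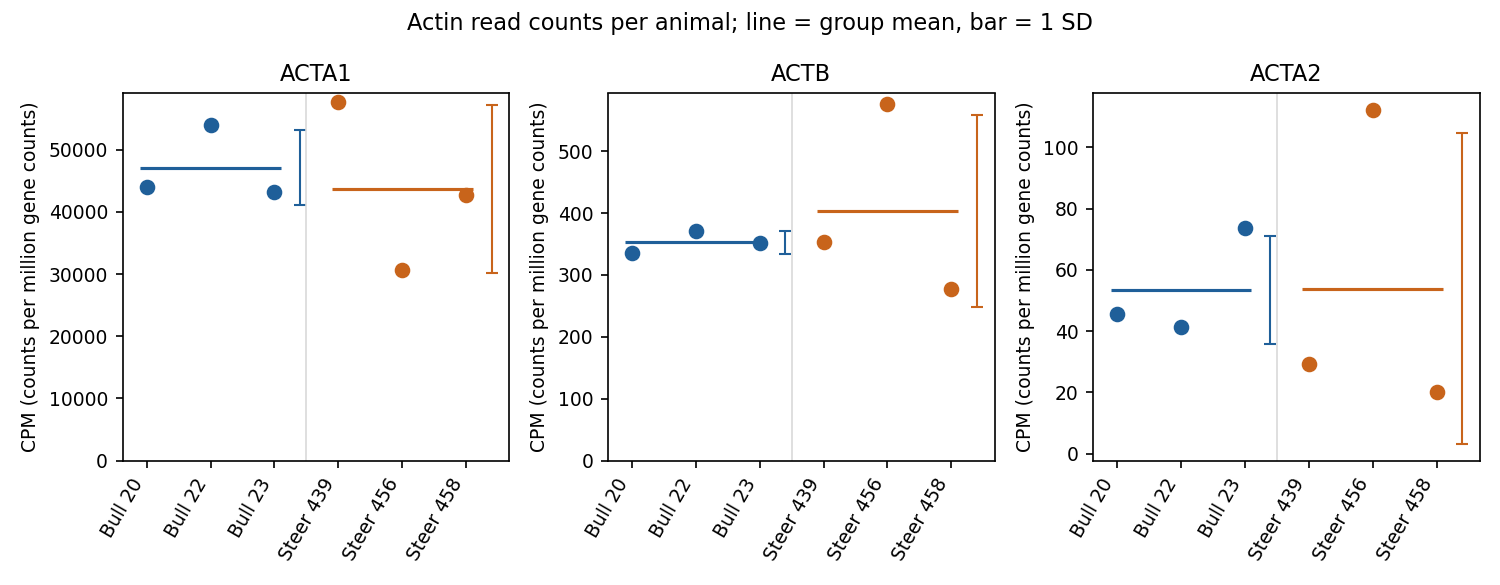
Levels of ACTA1, ACTB and ACTA2 in CPM on linear axes, with 1 point per animal, a horizontal line at each group mean and a vertical bar of 1 SD to either side of it (n = 3 per group; bulls in blue, steers in orange). Steer 456 has the least ACTA1 (30686 CPM) and the most ACTB (577 CPM) and ACTA2 (112 CPM), and in each panel the values of the groups overlap.

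ACTA2 had the widest range of the 3 actins. The bulls had 45.6 CPM in Bull 20, 41.3 CPM in Bull 22 and 73.5 CPM in Bull 23. The steers had 29.2 CPM in Steer 439, 112 CPM in Steer 456 and 20.3 CPM in Steer 458. A single steer was thus above every bull, while both other steers were below every bull. The highest steer exceeded the lowest 5.52-fold, and among bulls the highest exceeded the lowest 1.78-fold. These values rest on 558 reads in Steer 458 and 1909 in Steer 456, with counting errors of 4.23% and 2.29%. In bulk tissue, a smaller number of ACTA2-expressing cells and less ACTA2 RNA per cell cannot be told apart.

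The group means of ACTA2 on the linear scale were almost equal, 53.5 ± 17.5 CPM in bulls and 53.9 ± 50.6 CPM in steers (SD, n = 3). The fitted log2 difference was -0.05 ± 0.54 (SE; adjusted p = 0.968 in edgeR), with a 95% interval from -1.30 to 1.20. A difference of up to 2.30-fold in favour of bulls, or somewhat more in favour of steers, was within this interval. The direction turned with the scale of averaging. The mean log2 CPM was 5.65 in bulls and 5.39 in steers, and limma voom, which works on that scale, gave a log2 difference of 0.26 (limma adjusted p = 0.815).

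The comparison of ACTA2 turned on Steer 456. Without it, the 3 bulls lay entirely above the other 2 steers, as did 22.8% of all genes tested in that fit. This separation followed from leaving out the only steer above the bulls. The log2 fold change was then 0.98 ± 0.25 (SE), which corresponds to 1.97-fold higher in bulls with a 95% interval from 1.32 to 2.95. The adjusted p of 0.0571 in edgeR missed the threshold, in a fit where 7.77% of the tested genes were called. Its unadjusted p was 0.00494. A p under 0.05 before adjustment was found for 27.1% of the tested genes, and one as small as that of ACTA2 for 8.64%. Leaving out any other animal gave log2 fold changes of ACTA2 between -0.45 and 0.07. Limma voom was also run with a library weighted less the further it lay from the fitted values of its own group. Steer 456 received the lowest weight, 0.239, against 0.653 in Steer 439, 0.776 in Steer 458 and 1.48 to 2.59 in the bulls. The log2 fold change of ACTA2 was then 0.70 (limma adjusted p = 0.339).

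**Figure D2:**
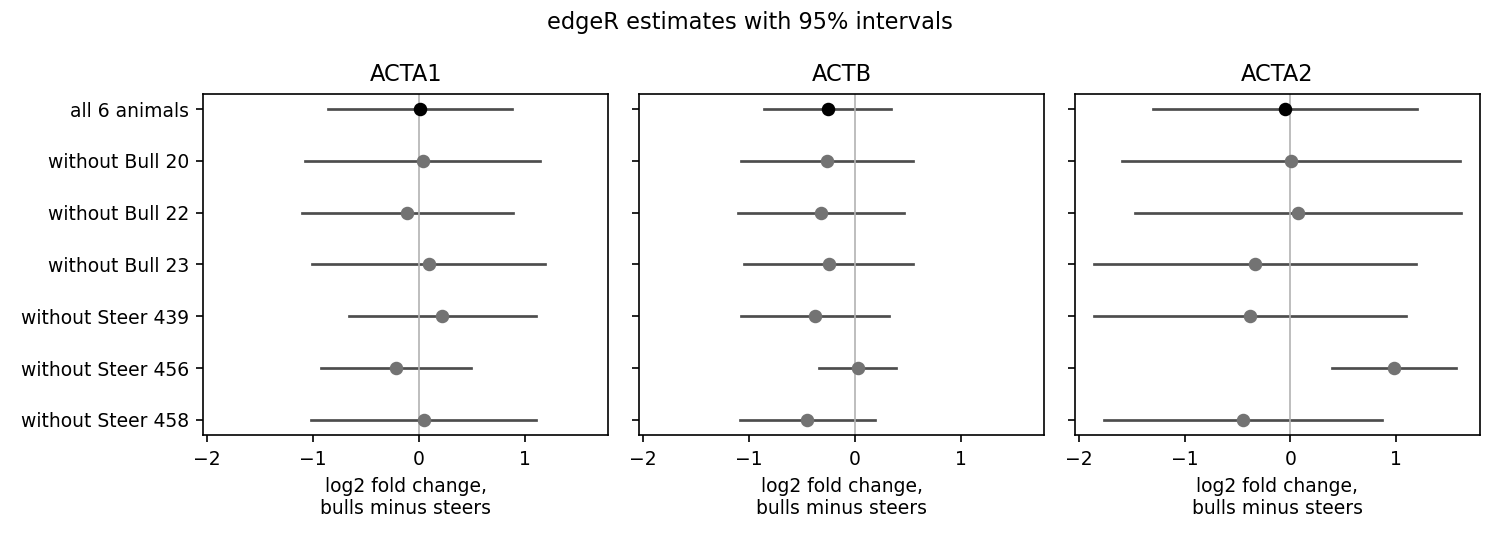
Log2 fold change of each actin (bulls minus steers, horizontal axis) in the edgeR fit of all 6 animals (black point) and in the fits that leave out 1 animal (grey points), with 95% intervals as lines. Of these 21 intervals, that of ACTA2 without Steer 456 (0.40 to 1.56) is the one that does not include 0.

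The ratio of 2 actins within a library needs no scaling to library size. For each 1000 reads of ACTA1 there were 7.60 reads of ACTB in Bull 20, 6.86 in Bull 22 and 8.16 in Bull 23. Steer 439 had 6.14 and Steer 458 had 6.51, both below all bulls, whereas Steer 456 had 18.8. The ratio in Steer 456 was 2.31 times the next highest, and this library had both the highest level of ACTB and the lowest of ACTA1. Bulls averaged 7.54 ± 0.649 and steers 10.5 ± 7.21 (SD, n = 3). The difference of the mean log2 ratio, bulls minus steers, was -0.27 (exact permutation p = 1, 2-sided, where 3 animals against 3 cannot go below 0.1). Without Steer 456 it was 0.25, with the bulls all above the steers (exact permutation p = 0.2, the smallest that 3 against 2 allows). This separation and its p followed from leaving out the only steer above the bulls. In the same 5 animals, the ratio to ACTA1 was higher in all bulls for 30.7% of all tested genes.

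Against ACTA1, ACTA2 also had Steer 456 on top and the other steers below all bulls. Per 1000 ACTA1 reads there were 1.03 ACTA2 reads in Bull 20, 0.765 in Bull 22 and 1.70 in Bull 23. The steers had 0.506 in Steer 439, 3.65 in Steer 456 and 0.475 in Steer 458. Steer 456 exceeded Steer 458 by a factor of 7.69, and no bull lay as low as Steers 439 and 458. Bulls averaged 1.17 ± 0.482 and steers 1.54 ± 1.83 (SD, n = 3), so the linear mean was higher in steers. The mean log2 ratio, in contrast, was higher in bulls by 0.20 (exact permutation p = 0.9, 2-sided). This direction was not stable to leaving out 1 animal. The difference was 1.17 without Steer 456 (exact permutation p = 0.2), but -0.11 without Bull 23, -0.26 without Steer 439 and -0.30 without Steer 458. The p without Steer 456 again followed from leaving out the only steer above the bulls. Without that animal, the ratio to ACTA1 was higher in all bulls for 30.7% of all tested genes.

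Between the 2 non-sarcomeric actins, Steer 456 no longer stood beyond the bulls. It had 194 reads of ACTA2 per 1000 reads of ACTB, and Bull 23 had 209. Bull 20 followed with 136 and Bull 22 with 111. Steer 439 had 82.5 and Steer 458 had 73.0, the lowest values. Bulls averaged 152 ± 50.5 and steers 117 ± 67.5 (SD, n = 3), a difference of the mean log2 ratio of 0.48 (exact permutation p = 0.4, 2-sided). This difference kept its sign whichever animal was left out, between 0.21 and 0.92. Its highest value was that without Steer 456, where the bulls were all above the steers, as 20.4% of all tested genes were in their ratio to ACTB. This separation, too, followed from the choice of the animal left out. After Benjamini-Hochberg adjustment over the 3 ratios, the exact permutation p was 1 for each of them.

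**Figure D3:**
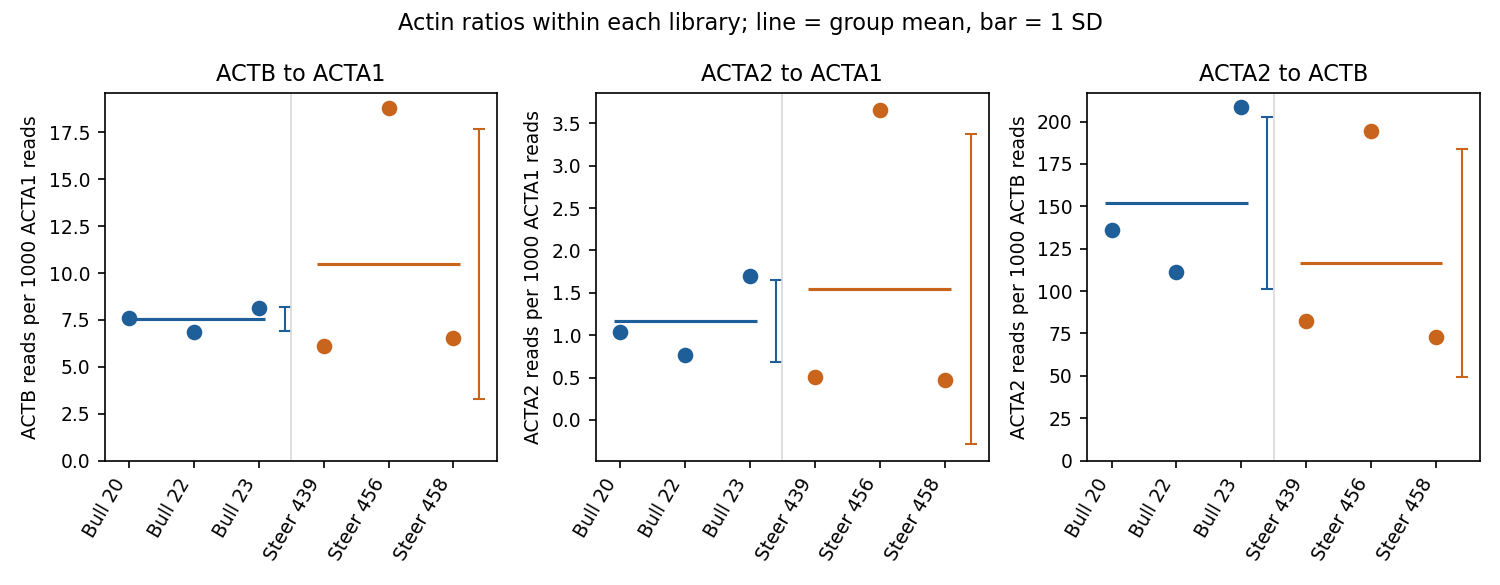
Reads of one actin per 1000 reads of another within each library (linear vertical axes), with 1 point per animal, a line at each group mean and a bar of 1 SD to either side (n = 3 per group). Steer 456 is far above the rest for ACTB to ACTA1 (18.8) and ACTA2 to ACTA1 (3.65) but below Bull 23 for ACTA2 to ACTB (194 against 209).

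The evenness of the actins was compared with that of all tested genes through the SD of log2 CPM (TMM-scaled) between the 3 animals of a group. The genes were not matched for level, and counting error adds more to the SD of genes with few reads. In bulls ACTB had an SD of 0.08, against a median of 0.18 over all tested genes, and 83.8% of the genes varied at least as much. In steers its SD was 0.43 against a median of 0.39, and 44.9% of the genes varied at least as much. ACTB thus belonged to the more even genes among bulls and to the middle of the range among steers. ACTA1 was near the middle throughout, at 0.20 in bulls and 0.51 in steers. ACTA2 was among the uneven genes in both, with 0.39 in bulls and 1.20 in steers, and 16.5% and 4.66% of the genes varied at least as much. The rank among steers depended on Steer 456. Between Steers 439 and 458 alone, the SD was 0.20 for ACTA1, 0.14 for ACTB and 0.26 for ACTA2, against a median of 0.24 over all tested genes. A larger SD in steers was common to the 3 actins and to 80.4% of all tested genes.

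**Figure D4:**
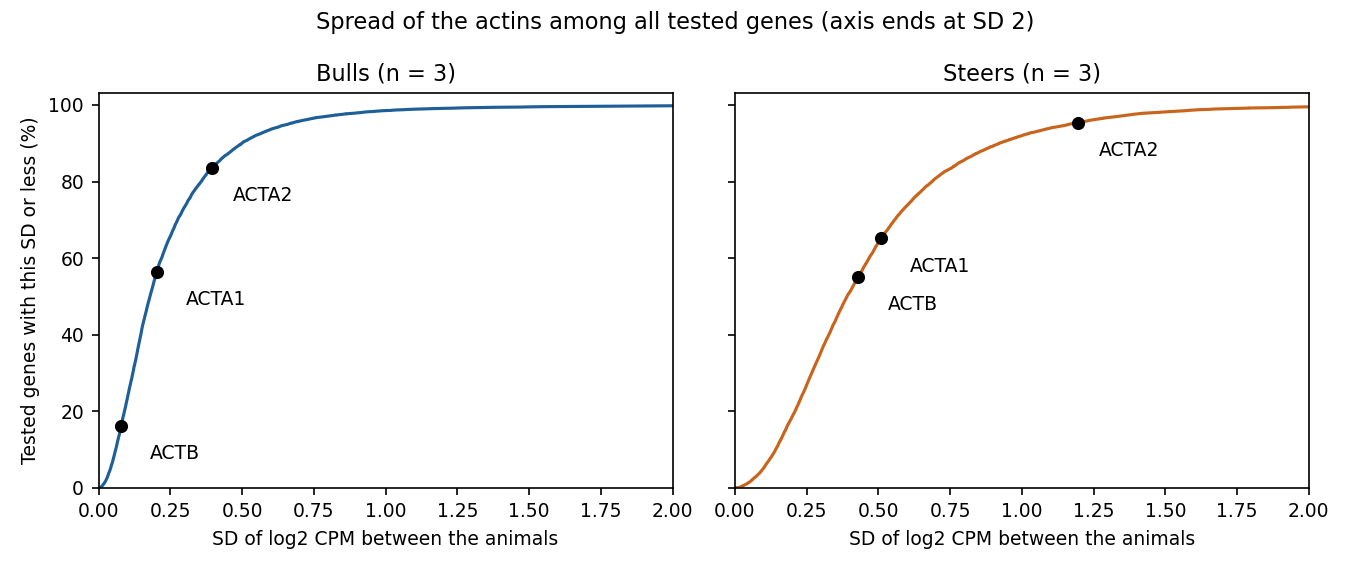
Cumulative share of the 12769 tested genes (vertical axis, percent) by the SD of log2 CPM between the 3 animals of a group (horizontal axis), with the 3 actins as points, for bulls on the left and steers on the right. ACTB moves from the even end in bulls (SD 0.08) to the middle in steers (0.43), while ACTA2 is the most uneven of the 3 in both (0.39 and 1.20).

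The part of age in the actin values of the steers was not tested. The animal of intermediate age, Steer 456 at 950 days, had the lowest ACTA1 and the highest ACTB and ACTA2. Steers 439 and 458, the oldest and the youngest, lay on the same side of it for all 3 genes. The older Steer 439 had more of each than Steer 458: 57689 against 42705 CPM of ACTA1, 354 against 278 of ACTB and 29.2 against 20.3 of ACTA2. Steer 456 was the highest of all 6 animals and Steer 458 the lowest for both ACTB and ACTA2, an arrangement shared by 6.50% of the tested genes. Markers of vessel, connective tissue, fat or blood cells could not be set beside these values, because only the 3 actin IDs are paired with gene names here. The part of other cell types in the values of Steer 456 was not tested.

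Across the 6 animals, the log2 CPM of ACTB and ACTA2 correlated with r = 0.84 (permutation p = 0.0389, exact) and rho = 0.54 (p = 0.297). The coefficients of ACTA1 were negative, with r = -0.60 to ACTB (exact permutation p = 0.311; rho = 0.03, p = 1) and r = -0.66 to ACTA2 (exact permutation p = 0.156; rho = -0.43, p = 0.419). After Benjamini-Hochberg adjustment over the 3 pairs, the exact permutation p of r was 0.117, 0.311 and 0.233 in this order, and none of rho was below 0.629. Without Steer 456, r was 0.66 for ACTB and ACTA2, 0.61 for ACTA1 and ACTB, and -0.18 for ACTA1 and ACTA2. Coefficients were also taken without the 2 animals farthest from the median of the gene named first in the pair. Without Steers 456 and 458, r was -0.15 for ACTB and ACTA2. Without Steers 456 and 439, it was 0.64 for ACTA1 and ACTB and 0.07 for ACTA1 and ACTA2. Each of the 3 thus had the opposite sign to that over all animals. The animals left out were chosen by the values correlated, so these coefficients cannot decide whether a relation holds. On TMM-scaled values the 3 coefficients over all animals were 0.73, -0.71 and -0.87. Values scaled to a common library total share that total, so these coefficients are descriptions.

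Other genes with the pattern of each actin were sought among 6666 genes with a mean of at least 10 CPM, by Pearson's r of log2 CPM over the 6 libraries. Nearest to ACTA1 was ENSBTAG00000021785 (r = 0.992), with 14.6 CPM in Steer 456 and 19.3 to 24.6 CPM in the other animals. ENSBTAG00000047957 was nearest to ACTB (r = 0.991), with 101 CPM in Steer 456 and 20.9 to 29.5 CPM elsewhere. ENSBTAG00000011226 was nearest to ACTA2 (r = 0.988), from 8.31 CPM in Steer 458 to 15.6 CPM in Steer 456. None of them passed the test between bulls and steers (edgeR adjusted p = 0.874, 0.318 and 0.841), where 4.10% of all tested genes were called. They were chosen in the same libraries for likeness to actins that did not pass, so this is no separate result. A coefficient of at least 0.9 was reached by 260 genes for ACTA1, 183 for ACTB and 79 for ACTA2, so the nearest gene is 1 of many. Among the actins themselves on this TMM-scaled measure, 10.02% of the genes correlated with ACTB at least as highly as ACTA2 did. With ACTA1, 2.19% of the genes had a coefficient as negative as that of ACTA2 and 8.37% one as negative as that of ACTB.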

How the data were processed

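The authors deposited raw read counts by Ensembl gene ID, 1 file per animal, made with TopHat2 version 2.0.2 and HTSeq version 0.5.3p3 on the build UMD3.1, per the submitters' processing notes. The sources used here do not give the annotation release, the strand setting or the overlap mode. The 5 HTSeq summary rows, 29.3% to 39.9% of all lines counted, entered neither library sizes nor tests. The names of the 3 actins came with the choice of IDs, and the files used here do not pair them with symbols. The supplied name table (37063 rows, ARS-UCD2.0 assembly) pairs 0 rows with an Ensembl ID, so 10 lists of pathway and cell type genes fixed by symbol could not be tested. No coordinates or sequences were used.

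All genes were fitted with edgeR 4.0.16 in R 4.3.3 (quasi-likelihood F test, TMM factors, filterByExpr, robust dispersion, group as the only term, all 6 libraries, Benjamini-Hochberg at 0.05). The SE is the size of the log2 fold change over the square root of F. Log2 CPM used a prior count of 2. Ratios were compared with exact 2-sided permutation tests over animals (SciPy 1.17.1). The scripts were tested on simulated data. Alternatives were other scalings and filters, DESeq2 1.42.0, limma 3.58.1 (voom) and leaving out each animal; library weights were added after seeing the data. Each numbered animal counts as 1 replicate. A count of 0 would allow up to 3 counts, at most 0.176 CPM. Intervals of shares cover counting error only, since no molecular identifiers are described. Named genes were the 3 actins and, for each, the 1 gene with the highest r at a mean of at least 10 CPM. The members, lists and tests were chosen with earlier results of these data known.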

Additional observations from a re-analysis of the deposited data

Results flagged for a closer look

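Some reads in the files enter no comparison of the actins. In the median library, 26.8% of the lines counted were alignments to several places, 11.3% were reads outside annotated genes and 0.438% were reads over several genes. The files do not say which of the multiple alignments came from actins. No test for outliers was run within the groups of 3 animals.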

How the results depend on the processing

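In none of the 15 alternatives did an actin pass the threshold. Adjusted p ranged from 0.686 to 0.999 for ACTA1, from 0.387 to 0.925 for ACTB and from 0.0571 to 0.999 for ACTA2. The log2 fold change of ACTA1 (0.015 with all animals) was -0.00061 with DESeq2 size factors in edgeR and in DESeq2, and -0.11 with library weights. That of ACTA2 (-0.05) was 0.26 in limma voom and 0.70 with library weights. With 1 animal left out, values ranged from -0.22 to 0.22 for ACTA1, from -0.45 to 0.029 for ACTB and from -0.45 to 0.98 for ACTA2. In the same way the mean log2 ratio ranged from -0.56 to 0.25 for ACTB to ACTA1, from -0.30 to 1.17 for ACTA2 to ACTA1 and from 0.21 to 0.92 for ACTA2 to ACTB, and the share of gene counts held by the 3 actins differed by -0.30 to 1.03 percentage points, against 0.34 with all animals. Averaged on a linear scale, the ACTA2 to ACTA1 ratio differed by -0.41 on the log2 scale, against 0.20. The number of genes called among all tested genes was 524, and it was 1507 in DESeq2, 894 with library weights and 7 to 1019 with 1 animal left out. The cause of these changes was not tested. No paired analysis was possible because the animal numbers of bulls and steers do not match.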
